A study of Mus musculus with 6 samples.

Results

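10 genes of skeletal muscle were described across 6 auditory nerve libraries of the mouse: Ttn, Neb, Ryr1, Acta1, Ckm, Myl1, Tcap, Casq1, Tnnt3 and Mylpf. The members were found by symbol, and all 10 of 10 had a row among the 17666 genes of the table. They were selected on measured values, since the set was proposed with the normalized counts of these 6 libraries and the difference between the labels known, so their differences are descriptions with no test. The 3 long members, Ttn, Neb and Ryr1, were set against the 7 short ones. The libraries came from auditory nerves microdissected from young adult mice aged 1.5 to 2.5 months, with the 2 cochleas of 1 mouse combined in each library. There were 3 libraries from C57 mice with the genotype wildtype and 3 from C57 FactorB KO mice, in which Cfb, encoding complement factor B, had been knocked out. The labels give no other allele or agent, and they do not say which part of Cfb was deleted. The study looked for changes in the nerve that go with loss of factor B. Values are the authors' normalized counts, which are read counts scaled per library and rounded to whole numbers.

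Cfb itself ran counter to its labels. It stood at 55, 39 and 116 in wildtype replicates 1, 2 and 3 and 336, 351 and 376 in knockout replicates 1, 2 and 3, so that every library labelled knockout was above every library labelled wildtype. The log2 difference was 2.47 (SE 0.38, adjusted p = 0.107 by limma, and 0.00488 to 0.469 over the alternatives). The authors' deposited values gave Cfb as 5.08-fold higher in the libraries labelled knockout, at a false discovery rate of 1.8e-06. The groups are therefore named below as the libraries labelled wildtype and the libraries labelled knockout, and each direction rests on those labels. Nerve markers were high in all libraries: Mbp, a myelin protein, lay between 133466 and 264638, and Snap25, a neuronal membrane fusion protein, lay between 59190 and 125727. The 6 column totals lay between 38675077 and 41496282. The gaps and excesses among low whole values gave scale factors of 0.919 to 0.984 in the libraries labelled wildtype and 1.02 to 1.05 in those labelled knockout, so that more reads lay behind a value in the former. Depth thus went with the label and cannot be told apart from it.

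The sarcomere is the contractile unit of striated muscle. Actin thin filaments slide past myosin thick filaments, troponin on the thin filament answers to calcium, and calcium leaves the sarcoplasmic reticulum, where calsequestrin stores it, through the ryanodine receptor. Titin spans from the Z-disc to the middle of the sarcomere and nebulin runs along the thin filament, and both are among the largest proteins known. The tensor tympani and the stapedius, small skeletal muscles of the middle ear, lie beside the cochlea. In bulk tissue, fewer cells of a type and less RNA per cell cannot be told apart.

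The 10 members did not move as 1 group. Ttn and Neb were 2.6-fold and 3.17-fold higher in the libraries labelled knockout. Tcap and Casq1 were 2.71-fold and 1.81-fold lower there, with all 3 libraries of each label on their own side. Acta1, Ckm, Myl1, Tnnt3 and Mylpf were highest in wildtype replicate 2, at 1.99 to 10.2 times the next library, and Ryr1 was at 20 or fewer everywhere. All 7 short members had their highest value in wildtype replicate 2, and Ttn and Neb had their lowest there.

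**Figure D1:**
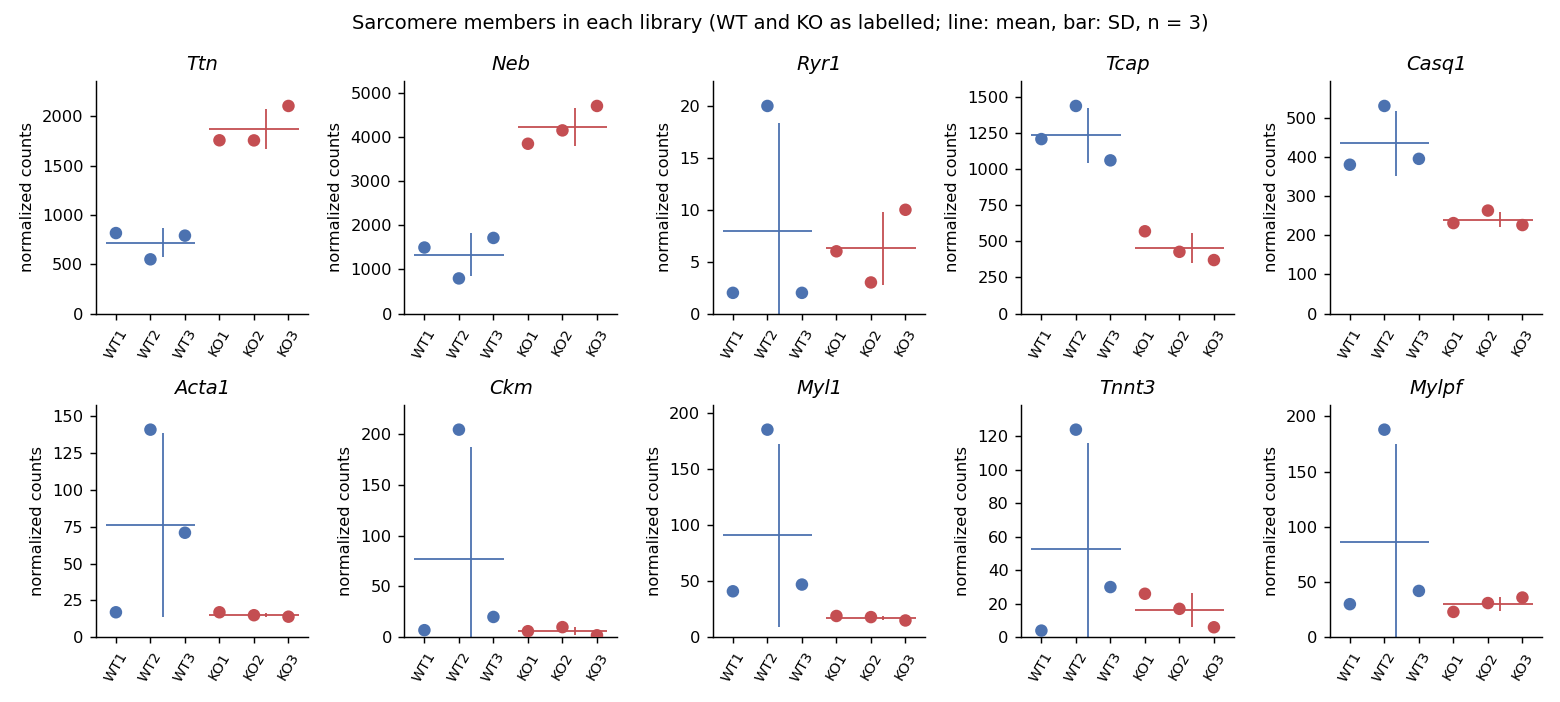
Normalized counts of each of the 10 members (vertical axis, linear from 0, own scale in each panel) in the 6 libraries, WT for the label wildtype and KO for the label knockout. Points are single libraries, lines the label means and bars the SD over 3 libraries, drawn only above 0; Ttn and Neb separate upward, Tcap, Casq1 and Myl1 downward, and the others are led by WT2.

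Ttn encodes titin, the molecular spring of the sarcomere (chromosome 2, 76703980 to 76982547, minus strand, mm10, with 347 exons in the longest coding transcript of 107 kb). Its normalized counts were 816, 550 and 790 in wildtype replicates 1, 2 and 3 and 1756, 1755 and 2104 in knockout replicates 1, 2 and 3. The lowest library labelled knockout was above the highest labelled wildtype. Mean values of 718.7 ± 146.6 and 1871.7 ± 201.2 (SD, n = 3) were 2.6-fold apart. The difference was 1.40 on the log2(value + 1) scale (SE 0.18), and 1.21 without wildtype replicate 2.

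Neb encodes nebulin, the ruler-like protein of the thin filament (chromosome 2, 52136647 to 52378474, minus strand, 157 exons, transcript of 22.5 kb). It stood at 1495, 796 and 1712 in wildtype replicates 1, 2 and 3 and at 3843, 4145 and 4698 in knockout replicates 1, 2 and 3. Again the groups did not overlap, and wildtype replicate 2 was the lowest library. The means were 1334.3 ± 478.7 and 4228.7 ± 433.6 (SD, n = 3), 3.17-fold apart, with a log2 difference of 1.73 (SE 0.28) and of 1.40 without wildtype replicate 2. Ttn and Neb kept nearly the same order of libraries, with a Pearson r of 0.989 over the 6 libraries, which share depth and labels. The ratio of Neb to Ttn was 1.83, 1.45 and 2.17 in wildtype replicates 1, 2 and 3 and 2.19, 2.36 and 2.23 in knockout replicates 1, 2 and 3.

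Ryr1, the calcium release channel of skeletal muscle (chromosome 7, 29003344 to 29125179, minus strand, 109 exons, transcript of 15.3 kb), did not follow Ttn and Neb. Its normalized counts were 2, 20 and 2 in wildtype replicates 1, 2 and 3 and 6, 3 and 10 in knockout replicates 1, 2 and 3. The groups overlapped, and the library with the highest value was wildtype replicate 2. The means were 8.0 ± 10.4 under the label wildtype and 6.3 ± 3.5 under the label knockout (SD, n = 3). Their direction was opposite to that of the log2 difference. The log2 difference was 0.23 (SE 0.87); without wildtype replicate 2 it was 1.17, and its sign changed in 4 of 13 alternative settings. At so few reads no difference was detectable. Ryr3, the related channel that neurons also use, was far above it, with 915, 589 and 531 in wildtype replicates 1, 2 and 3 and 1233, 1507 and 1168 in knockout replicates 1, 2 and 3. Ryr1 amounted to 3.4% of the Ryr3 value in wildtype replicate 2 and to between 0.199% and 0.856% in the other libraries.

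Tcap and Casq1 were the short members with the highest values, and the ones whose difference depended least on 1 library. Tcap encodes telethonin, which caps titin at the Z-disc (chromosome 11, 98383811 to 98384953, plus strand, 2 exons, transcript of 0.948 kb). Its normalized counts were 1206, 1435 and 1059 in wildtype replicates 1, 2 and 3 and 569, 427 and 370 in knockout replicates 1, 2 and 3. The means of 1233.3 ± 189.5 and 455.3 ± 102.5 (SD, n = 3) were 2.71-fold apart, lower in the libraries labelled knockout, with no overlap. The log2 difference was -1.45 (SE 0.20), and -1.33 without wildtype replicate 2. Its neighbours on chromosome 11 differed among themselves. Pnmt, which makes adrenaline, was at 11, 21 and 45 in wildtype replicates 1, 2 and 3 and at 4, 6 and 4 in knockout replicates 1, 2 and 3, a log2 difference of -2.04 (SE 0.56). Stard3 was at 1546, 1737 and 2075 in wildtype replicates 1, 2 and 3 and at 1412, 1472 and 1405 in knockout replicates 1, 2 and 3, and Pgap3 had a log2 difference of 0.01 (SE 0.14).

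Casq1 encodes calsequestrin 1, the calcium store protein of fast muscle (chromosome 1, 172209894 to 172219868, minus strand, 11 exons, transcript of 1.85 kb). It was at 380, 530 and 395 in wildtype replicates 1, 2 and 3 and at 231, 263 and 226 in knockout replicates 1, 2 and 3. All libraries labelled knockout were below all labelled wildtype, with means of 435.0 ± 82.6 and 240.0 ± 20.1 (SD, n = 3), 1.81-fold apart. The log2 difference was -0.84 (SE 0.18), and -0.69 without wildtype replicate 2.

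The ratio of the normalized counts of Tcap to those of its partner Ttn, not corrected for length, was 1.48, 2.61 and 1.34 in wildtype replicates 1, 2 and 3 and 0.324, 0.243 and 0.176 in knockout replicates 1, 2 and 3. Every library labelled wildtype was above every library labelled knockout. The ratio serves only to compare libraries, since per length of transcript Tcap was far above Ttn in all 6.

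The other 5 short members were those of the contractile filaments and of creatine metabolism in fast muscle. Acta1 encodes skeletal muscle actin (chromosome 8, 123891769 to 123894751, minus strand, 7 exons), and its counts can be split with the near-identical coding sequence of other actins. It stood at 17, 141 and 71 in wildtype replicates 1, 2 and 3 and at 17, 15 and 14 in knockout replicates 1, 2 and 3. Wildtype replicates 2 and 3 were high, and wildtype replicate 1 equalled a library labelled knockout. With means of 76.3 ± 62.2 and 15.3 ± 1.5 (SD, n = 3), the log2 difference was -1.80 (SE 0.71), and -1.14 without wildtype replicate 2.

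Ckm encodes muscle creatine kinase, which rebuilds ATP from phosphocreatine (chromosome 7, 19404776 to 19422841, plus strand, 8 exons). It was at 7, 204 and 20 in wildtype replicates 1, 2 and 3 and at 6, 10 and 2 in knockout replicates 1, 2 and 3. One library held 81.9% of its sum over the 6 libraries, 10.2 times the next highest value. The means were 77.0 ± 110.2 and 6.0 ± 4.0 (SD, n = 3), 12.8-fold apart, and 2.25-fold without wildtype replicate 2. The log2 difference was -2.41 (SE 1.17), and -1.08 without that library. The antisense gene A930016O22Rik overlaps Ckm and had 34, 24 and 16 in wildtype replicates 1, 2 and 3 and 44, 39 and 28 in knockout replicates 1, 2 and 3; strand use in the counting is not given in the sources used here, so the 2 cannot be told apart where they overlap.

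Myl1 and Mylpf encode the alkali and the regulatory light chain of fast skeletal myosin. Myl1 (chromosome 1, 66924295 to 66945404, minus strand, 7 exons) was at 41, 185 and 47 in wildtype replicates 1, 2 and 3 and at 19, 18 and 15 in knockout replicates 1, 2 and 3. It was the only 1 of these 5 whose groups did not overlap. Its log2 difference was -1.98 (SE 0.58), and -1.30 without wildtype replicate 2. Mylpf (chromosome 7, 127208890 to 127214298, plus strand, 7 exons) was at 30, 188 and 42 in wildtype replicates 1, 2 and 3 and at 23, 31 and 36 in knockout replicates 1, 2 and 3. Outside wildtype replicate 2 its values overlapped, and the log2 difference went from -1.05 (SE 0.66) to -0.26 without that library.

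Tnnt3, the troponin T that anchors the troponin complex to tropomyosin in fast muscle (chromosome 7, 142498836 to 142516009, plus strand, 18 exons), was at 4, 124 and 30 in wildtype replicates 1, 2 and 3 and at 26, 17 and 6 in knockout replicates 1, 2 and 3. Only wildtype replicate 2 stood apart. The log2 difference of -0.84 (SE 1.14) turned to 0.27 without it. Prr33, which overlaps Tnnt3 on the opposite strand, was at 47, 51 and 25 in wildtype replicates 1, 2 and 3 and at 93, 59 and 49 in knockout replicates 1, 2 and 3.

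Summed over Acta1, Ckm, Myl1, Tnnt3 and Mylpf, the normalized counts were 99, 842 and 210 in wildtype replicates 1, 2 and 3 and 91, 91 and 73 in knockout replicates 1, 2 and 3. Wildtype replicate 1 was close to the libraries labelled knockout, and the difference between the labels therefore lay mostly in wildtype replicate 2. The mean log2 difference of the 5 genes was -1.62, and -0.70 without that library. Without wildtype replicate 1 the single differences were larger, -3.42 for Ckm, -2.63 for Acta1 and -2.05 for Tnnt3. The mean difference of Ttn and Neb was 1.56, and 1.31 without it, and that of Tcap and Casq1 was -1.14, and -1.01 without it. Among themselves the 5 genes had pairwise Pearson r values of 0.691 to 0.935 over the 6 libraries (10 pairs), which again share depth and labels.

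**Figure D2:**
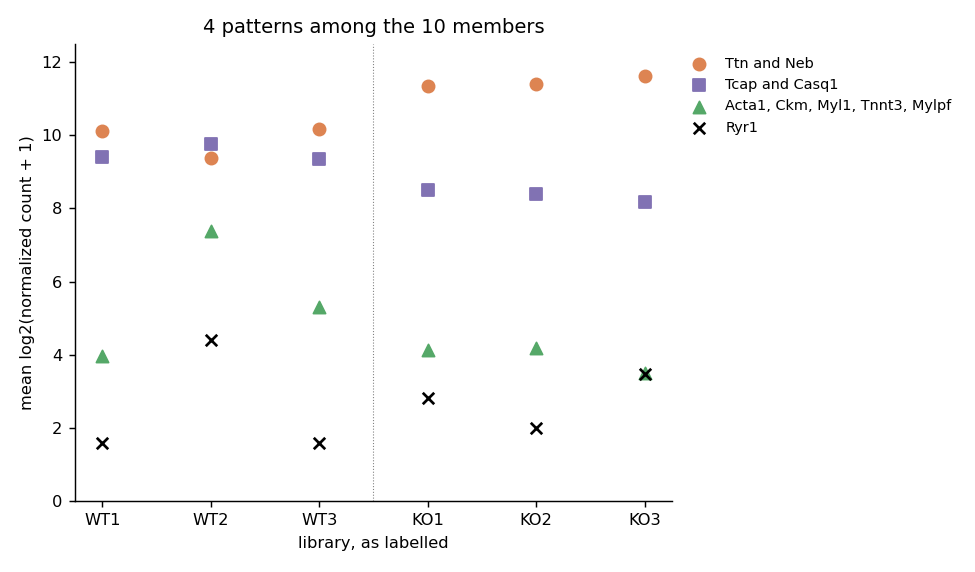
Mean log2(normalized count + 1) (vertical axis) in each library (horizontal axis, as labelled) for Ttn and Neb, for Tcap and Casq1, for the 5 short members led by WT2, and for Ryr1. On this scale, which is not per length, Ttn and Neb are higher and Tcap and Casq1 lower in all 3 libraries labelled knockout, and the 5 short members reach 7.38 in WT2 and 3.50 to 5.31 elsewhere.

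The sequences before the start sites are shown for the 4 of these 5 genes with an entry and for Ttn as the giant that was lowest where they were highest. An entry was found for 7 of the 10 members (not for Neb, Tcap and Tnnt3). Each line is the 250 bases before the start site from RefSeq (GRCm38.p6), 5′ to 3′ on the gene's strand: chr8:123894776-123895025 (minus) for Acta1, chr7:19410844-19411093 (plus) for Ckm, chr1:66945057-66945306 (minus) for Myl1, chr7:127211358-127211607 (plus) for Mylpf and chr2:76982548-76982797 (minus) for Ttn. The windows of Ckm, Mylpf and Myl1 lie inside the gene spans given above, which come from GENCODE M21. RefSeq and GENCODE thus place these start sites differently. Capitals mark matches, on either strand, to the E-box CANNTG, the letters of the site that myogenic factors such as MyoD bind, to TATAAA, to the CArG box of serum response factor and to the site of MEF2.
Acta1: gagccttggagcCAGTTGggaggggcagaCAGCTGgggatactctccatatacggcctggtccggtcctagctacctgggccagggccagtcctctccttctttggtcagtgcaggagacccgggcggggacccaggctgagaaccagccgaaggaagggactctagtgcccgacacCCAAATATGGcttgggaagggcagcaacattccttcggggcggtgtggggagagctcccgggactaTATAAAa
Ckm: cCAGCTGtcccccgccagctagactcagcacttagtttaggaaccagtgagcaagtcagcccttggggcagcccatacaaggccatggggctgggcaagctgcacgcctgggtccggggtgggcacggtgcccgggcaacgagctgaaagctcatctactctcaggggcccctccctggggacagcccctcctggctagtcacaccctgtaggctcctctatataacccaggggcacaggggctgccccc
Myl1: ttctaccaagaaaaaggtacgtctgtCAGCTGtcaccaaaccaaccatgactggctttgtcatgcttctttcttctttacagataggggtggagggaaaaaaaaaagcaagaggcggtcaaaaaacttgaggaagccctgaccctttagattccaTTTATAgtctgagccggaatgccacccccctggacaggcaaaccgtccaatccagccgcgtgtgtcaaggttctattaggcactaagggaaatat
Mylpf: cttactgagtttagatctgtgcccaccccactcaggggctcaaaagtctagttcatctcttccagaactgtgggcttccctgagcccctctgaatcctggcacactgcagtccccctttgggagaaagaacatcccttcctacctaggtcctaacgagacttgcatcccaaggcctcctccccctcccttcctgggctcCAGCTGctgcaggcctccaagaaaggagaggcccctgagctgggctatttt
Ttn: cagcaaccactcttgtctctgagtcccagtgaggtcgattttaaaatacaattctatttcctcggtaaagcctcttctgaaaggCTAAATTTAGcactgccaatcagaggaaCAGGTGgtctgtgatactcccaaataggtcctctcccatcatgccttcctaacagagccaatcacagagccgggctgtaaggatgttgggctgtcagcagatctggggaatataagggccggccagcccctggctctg
Each of the 5 windows held at least 1 E-box, as did 66.2% of 32851 promoter windows of the same length. Acta1 held 2 E-boxes, 1 CArG box and 1 TATAAA, against shares of 1.47% and 12.4% of all windows for the last 2. Ttn held 1 E-box and 1 MEF2 site, which 0.508% of all windows held. Myl1 held 1 E-box and 1 TATAAA, Ckm and Mylpf 1 E-box each and none of the others, and the Ryr1 window none of the 4. A match describes letters and is not evidence of binding.

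Levels can be set between genes only per length of transcript, here as normalized counts per kb of the longest coding transcript. In the libraries labelled wildtype the order of the means was Tcap at 1300 ± 200, Casq1 at 236 ± 44.7, Mylpf at 113 ± 115, Myl1 at 84.1 ± 75.3, Neb at 59.3 ± 21.3, Acta1 at 52.8 ± 43.0, Tnnt3 at 48.8 ± 58.5, Ckm at 28.1 ± 40.2, Ttn at 6.73 ± 1.37 and Ryr1 at 0.523 ± 0.679 per kb (SD, n = 3). From Mylpf to Ttn neighbours in this order did not differ beyond their spread. In the libraries labelled knockout Tcap, at 480 ± 108 per kb, was still first, and Neb, at 188 ± 19.3, came next, above Casq1 at 130 ± 10.9. Mylpf followed at 39.2 ± 8.56, then Ttn at 17.5 ± 1.88, Myl1 at 16.0 ± 1.92, Tnnt3 at 15.1 ± 9.28, Acta1 at 10.6 ± 1.06, Ckm at 2.19 ± 1.46 and Ryr1 at 0.414 ± 0.23 per kb. Neighbours from Ttn to Acta1 did not differ beyond their spread. Tcap was the highest member per kb in each of the 6 libraries.

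In the mean of log2(value + 1), the long members minus the short members gave 1.75, -0.35 and 0.86 in wildtype replicates 1, 2 and 3 and 3.12, 2.88 and 4.06 in knockout replicates 1, 2 and 3. Wildtype replicate 2 was the lowest library, and the groups did not overlap. These values are not per length, so they compare libraries and not the levels of the genes. The group means were 0.75 ± 1.05 and 3.35 ± 0.62 (SD, n = 3), a difference of 2.60, and of 2.05 without wildtype replicate 2. Because the members were chosen with these values known, no test is attached.

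None of the 10 members passed limma's Benjamini-Hochberg threshold of 0.05 over all genes, and 6 had an unadjusted p under 0.05. Over all 17666 genes 28 passed (0.158%), and 3528 had an unadjusted p under 0.05. In the authors' deposited table, 9 of the members had a false discovery rate, and 2 were called higher (Ttn and Neb) and 5 lower (Tcap, Casq1, Myl1, Acta1 and Ckm). That table called 4.14% of 15605 genes higher and 3.25% lower. Among the 10 members 2 had all values labelled knockout above all labelled wildtype, against 13.6% of all genes, and 3 had them below, against 14.9%; without wildtype replicate 1 all 7 short members had them below, against 22.1% of all genes. Since the choice of members used this contrast, nothing is read from these counts. In 8 of the 10 members the highest value was in wildtype replicate 2, compared with 22.3% of all genes. Genes with a coding length under 0.5 kb or of 0.5 to 1 kb also lay above their own mean there, by a median log2 of 0.31 and 0.19. The members were proposed with the values of this library known, so nothing is read from this count either.

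Length was a property that went with the label over the whole table. Coding length, from GENCODE M21, was matched for 16182 genes. In genes with a coding length under 0.5 kb (1351 genes) the median log2 difference was -0.34, and it went through -0.19 at 0.5 to 1 kb, -0.02 at 1 to 2 kb, 0.19 at 2 to 4 kb, 0.46 at 4 to 8 kb and 0.73 at 8 to 12 kb to 1.04 in the 60 genes of 12 kb or more. All 60 had a log2 difference above 0, although the mean value of Ryr1 was lower in the libraries labelled knockout (6.3 against 8.0). In 73.3% of the 60 every value labelled knockout was above every value labelled wildtype, against 13.6% of all genes. Over all genes the median difference was 0.01.

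The gradient was steepest in wildtype replicate 2, the library in which the short members peaked. Its median deviation from the gene mean was 0.31 under 0.5 kb and -1.01 at 12 kb or more. At 12 kb or more the deviation was -0.22 in both other libraries labelled wildtype and 0.49, 0.63 and 0.47 in knockout replicates 1, 2 and 3. Without wildtype replicate 2 the median of the 60 genes was 0.83. Whether RNA integrity, library preparation or depth had a part in this was not tested.

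**Figure D3:**
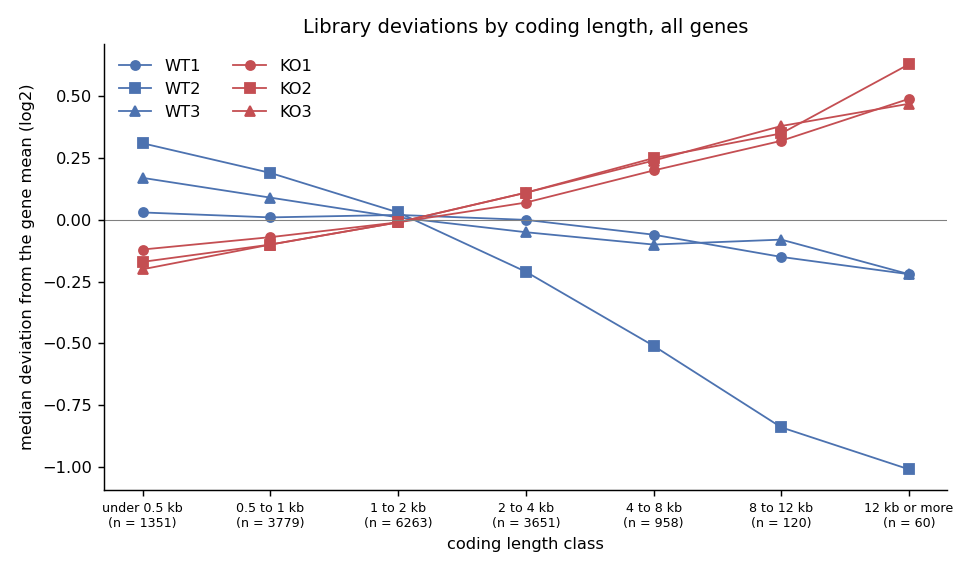
Median deviation of each library from the gene mean (vertical axis, log2) in 7 classes of coding length (horizontal axis, with the number of genes), all genes with a coding length. WT2 runs from 0.31 in the shortest to -1.01 in the longest class, and the 3 libraries labelled knockout run the other way to between 0.47 and 0.63.

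The members were also set against the genes of their class of coding length. Ttn had the 15th and Neb the 7th highest difference of the 60 genes of 12 kb or more, and Ryr1 the 58th. With a loess correction of each library for coding length, the log2 difference became -0.42 for Ttn, 0.65 for Neb and -0.69 for Ryr1. Ttn has by far the longest coding sequence of the table, 106 kb, with Syne1 next at 26.4 kb. Its class therefore holds no gene of its own length, and its corrected value rests on few genes. The differences of the short members stayed lower in the libraries labelled knockout after the correction: -2.34 for Ckm, -1.75 for Myl1, -1.73 for Acta1, -1.19 for Tcap, -0.80 for Mylpf, -0.79 for Casq1 and -0.69 for Tnnt3. By the uncorrected difference, from the lowest, Ckm was 16th, Acta1 37th and Casq1 186th of 6263 genes of 1 to 2 kb. Myl1 was 30th, Tcap 58th, Mylpf 121st and Tnnt3 187th of 3779 genes of 0.5 to 1 kb. The members were chosen with this difference known, so nothing is read from their ranks. Without wildtype replicate 2 the uncorrected difference was -1.08 for Ckm, -0.26 for Mylpf and 0.27 for Tnnt3. With the length correction the long minus short difference went from 2.60 to 1.17, and without wildtype replicate 2, uncorrected, to 2.05.

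**Figure D4:**
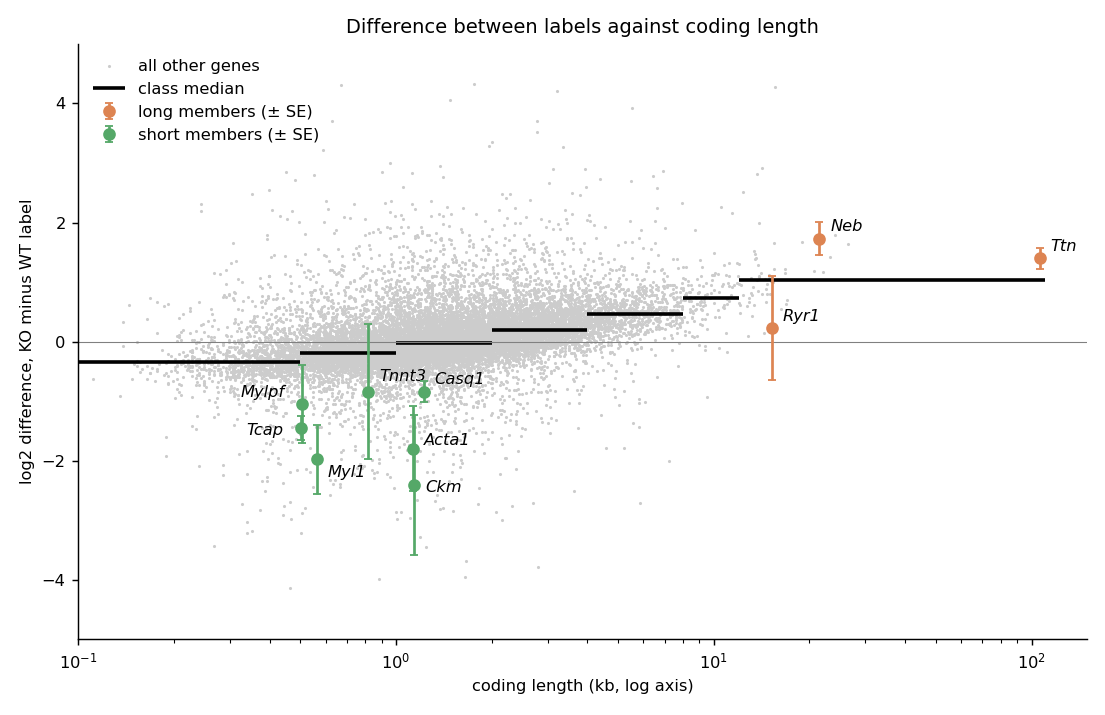
Log2 difference, label knockout minus label wildtype (vertical axis), against coding length in kb (log axis); grey points are all other genes, black lines the medians of 7 length classes, and coloured points the members with the SE. Ttn and Neb lie 0.35 and 0.69 above the median of 1.04 of their class and Ryr1 0.81 below it, while the 7 short members lie 0.65 to 2.39 below the medians of theirs.

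Giant genes listed as outside the sarcomere were also higher in the libraries labelled knockout. The list includes Dmd, Ryr2 and Plec, so it is not free of genes that muscle uses. Of 33 listed, 32 were measured, and their median log2 difference was 1.08, against 0.01 over all genes, 0.83 without wildtype replicate 2 and 0.16 after the length correction. By limma 1 rose and none fell, where 0.158% of all genes passed. An unadjusted p under 0.05 was found for 30, and for 3528 of all 17666 genes. Of the 32, 21 were called higher and none lower in the authors' deposited table. That table called 4.14% of 15605 genes higher and 3.25% lower. Adgrv1, an adhesion receptor of hair cell links, passed: it was at 128, 96 and 103 in wildtype replicates 1, 2 and 3 and at 388, 356 and 298 in knockout replicates 1, 2 and 3, a log2 difference of 1.67 (SE 0.20, limma adjusted p = 0.0408, and 0.0239 to 0.363 over the alternatives). Leaving out wildtype replicate 2 or any library labelled knockout ended that call, as did the length correction, the fit without the trend and the fit with the replicate number as a block. Dst, a cytolinker and the most abundant of the list, had a log2 difference of 1.43, and Ank2, an ankyrin of axons, of 0.98. Dmd, the gene of dystrophin, was the exception at -0.18. In 28 of the 32 (87.5%) the lowest value was in wildtype replicate 2, against 22.3% of all genes, as it was for Ttn and Neb.

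Of 106 other skeletal muscle genes in 6 lists, 91 were measured. By limma 0 passed, against 0.158% of all genes. Of the 91, 12 had an unadjusted p under 0.05, against 3528 of all 17666 genes. A rate was given for 75 in the authors' deposited table, with 4 called higher (Xirp2, Flnc and Ryr3 among them) and 2 lower (Cryab and Fabp3). Over all 15605 genes with a rate, 4.14% were called higher and 3.25% lower. The median log2 difference was 0.09, against 0.01 over all genes. Split by coding length, the median was 0.00 in the 55 genes under 2 kb, 0.19 in the 19 genes of 2 to 4 kb and 0.53 in the 17 genes of 4 kb or more. All 4 genes that the authors' table called higher were among the 17, both that it called lower among the 55, and the median of the 17 was 0.06 after the length correction. The other muscle genes had their highest value in wildtype replicate 2 in 24 of 91 cases (26.4%), near the 22.3% of all genes.

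By role, the thick filament list had a median log2 difference of 0.13 (17 of 18 measured). Its most abundant genes were Mybpc1, slow myosin-binding protein C, at 0.13 (SE 0.24), and Myl6b, a myosin light chain found outside muscle too, at 0.28 (SE 0.23). The thin filament list had a median of -0.04 (12 of 14 measured), with Tpm2, a tropomyosin, at 0.04 (SE 0.14) and Tmod4, which caps thin filament ends, at 0.39 (SE 0.16). The Z-disc and scaffold list had a median of 0.20 (22 of 24 measured). In it Cryab, a small chaperone that glia also make, was at 12064, 15089 and 19798 in wildtype replicates 1, 2 and 3 and at 10114, 10439 and 8972 in knockout replicates 1, 2 and 3, with a log2 difference of -0.64 (SE 0.19). Filamin C, from Flnc, was at 634, 418 and 686 in wildtype replicates 1, 2 and 3 and at 1100, 935 and 962 in knockout replicates 1, 2 and 3, lowest in wildtype replicate 2 as Ttn and Neb were.

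The excitation-contraction coupling list had a median of 0.20 (22 of 24 measured), with Cacnb1, a calcium channel subunit, at 0.36 (SE 0.27) and Ryr3 at 0.97 (SE 0.22). The energy metabolism list had a median of 0.07 (15 of 16 measured). Its leading genes Pfkm, phosphofructokinase, and Pygm, glycogen phosphorylase, differed by 0.12 (SE 0.13) and 0.19 (SE 0.22). Of 10 myogenic regulators 3 were measured, with a median of 0.06. Mef2c, which serves other tissues as well, had a log2 difference of 0.18 (SE 0.12), and Mstn, a growth inhibitor of muscle, one of -0.30. The defining regulators Myod1, Myog, Myf5 and Pax7 were among those with no value analysed here. None of the genes named in these 6 lists passed limma's adjusted threshold.

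**Figure D5:**
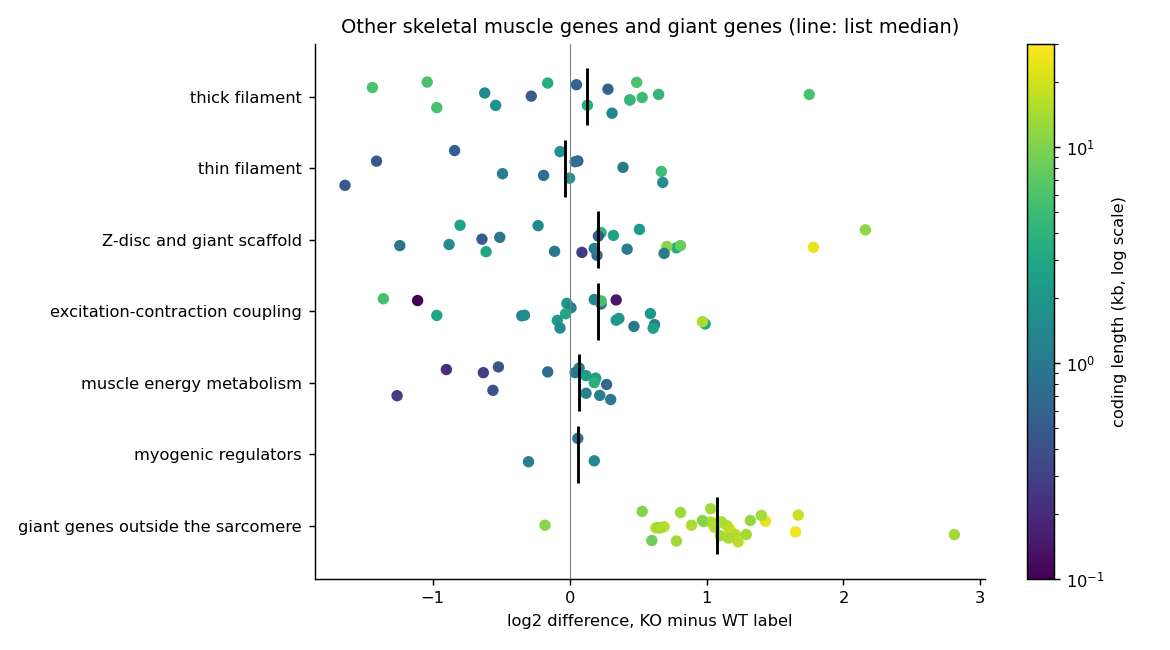
Log2 difference, label knockout minus label wildtype (horizontal axis), of each measured gene in the 6 muscle lists and in the list of giant genes outside the sarcomere; colour gives the coding length on a log scale and the black line the list median. The giant genes centre on 1.08, and the muscle lists centre between -0.04 and 0.20.

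Some other fast muscle genes were also highest in wildtype replicate 2; they were chosen after their values were seen. Tnnc2, fast troponin C, was at 1, 118 and 19 in wildtype replicates 1, 2 and 3 and at 6, 3 and 8 in knockout replicates 1, 2 and 3. Tnni2, fast troponin I, was at 11, 131 and 16 and at 24, 8 and 20 in the same order. Atp2a1, the calcium pump of fast muscle, was at 71, 331 and 55 and at 60, 49 and 57. The high library was wildtype replicate 2 in each, and the log2 differences without it were 0.00 for Tnnc2, 0.23 for Tnni2 and -0.18 for Atp2a1. Without that library Acta1, Ckm and Myl1 kept differences of -1.14, -1.08 and -1.30, while Mylpf was at -0.26 and Tnnt3 at 0.27. The difference of Ckm then rested on low values, 7 and 20 against 6, 10 and 2. The calcium channel gene Cacna1s had 61.5% of its sum in that library. Other fibre genes went the other way: Mybpc2, fast myosin-binding protein C, was at 170, 103 and 135 in wildtype replicates 1, 2 and 3 and at 144, 114 and 104 in knockout replicates 1, 2 and 3, and Clcn1, the muscle chloride channel, was at 27, 17 and 23 and at 43, 43 and 48. The genes high in that library were of several lengths, Atp2a1 with a coding length of 2.98 kb and Ryr1 with 15.2 kb among them, while Ttn and Neb were lowest in it.

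Markers of other sources moved in other ways. Smooth muscle and pericyte genes (12 of 12 measured) summed to between 24593 and 32576 in the libraries labelled wildtype and between 28287 and 33277 in the others; Rgs5 and Pdgfrb, both of pericytes, had log2 differences of -0.20 and 0.63. Heart muscle genes (6 of 7 measured) summed to 154 to 206 and 178 to 200. Their leading genes Myh6 and Myl4 were at 77 or less in every library. Red cell genes (9 of 10 measured) summed to 10828, 11385 and 34669 in wildtype replicates 1, 2 and 3. They summed to 4001, 3892 and 2727 in knockout replicates 1, 2 and 3. All 9 were lower without overlap, against 14.9% of all genes. Bone genes (11 of 11 measured) summed to 203465, 219580 and 448563 and to 175251, 163920 and 181679. Both were highest in wildtype replicate 3, not in wildtype replicate 2, and their part in the differences of the members was not tested. Schwann cell genes (10 of 10 measured) summed to 582201 to 815117 in the libraries labelled wildtype, highest in wildtype replicate 2, and to 463341 to 551770 in the others, and spiral ganglion neuron genes (10 of 10 measured) to 302547 to 526886 and 418851 to 508277.

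Among 14208 genes with a mean of at least 50, those with a profile over the 6 libraries most like the mean scaled profile of the short members were Caap1 (Pearson r 0.997), Tdp2 (0.996), Xbp1 (0.993), Oser1 (0.992), Tbca (0.992) and Rtraf (0.991). These are widely used genes with coding lengths of 0.324 to 1.11 kb. Xbp1, a transcription factor of the unfolded protein response, was at 4320, 5707 and 4590 in wildtype replicates 1, 2 and 3 and at 4052, 3908 and 3833 in knockout replicates 1, 2 and 3. It was highest in wildtype replicate 2 but over a far narrower range than the muscle genes. Most like the long members were Zfp219 (Pearson r 0.991), 4933427D14Rik (0.99), Mtus1 (0.98), Lig1 (0.978), Inf2 (0.978) and Socs3 (0.974). The coding lengths of these 6 genes were 0.675 to 3.81 kb, so none was a giant gene. The mean profile of the long members weighs Ryr1, highest in wildtype replicate 2, as much as Ttn and Neb. These r values over 6 libraries that share labels are descriptions.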

How the data were processed

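RNA from 6 auditory nerve samples was sequenced, after low-quality RNA had been excluded, with Illumina's TruSeq RNA kit, per the labels' protocols. Per the submitters' processing notes, TopHat2, DESeq2, Partek and mm10 were used, in roles that the notes leave out. Annotation release, strand and depth are not given in the sources used here. Deposited values are a score: counts that the authors scaled per library and rounded, as read from the values. The authors' fold changes and false discovery rates are other columns of the table, per the file headers, and are named as theirs. Because values were not raw counts, no count test was run.

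Limma 3.58.1 (R 4.3.3) was fitted on log2(value + 1) with the label as sole term and eBayes with a mean trend, and adjusted by Benjamini-Hochberg over all 17666 genes at 0.05. A filter of a mean of at least 1 removed 0 genes. Log2 differences on this scale understate the change of low genes. The script was tested on simulated data. With 3 libraries against 3, an exact permutation test of 1 value cannot give a p below 0.1. Lengths and coordinates came from GENCODE M21 (mm10). There were 0 unused columns of sample values.

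The members and lists were chosen with earlier results of these data known. Named genes are all members, up to 4 called genes of each list or else the 2 of highest mean, and the 6 most similar genes per profile; Cfb, Flnc, Xirp2, Fabp3, Mstn, Dmd, Mybpc2, Clcn1, the neighbours of Tcap and the overlapping genes were named after their values were seen. Alternatives were other pseudocounts, filters and scalings, library weights, no trend, a length correction (loess, span 0.5), the replicate block and leaving out each library. Some genes that the rule names are left out of the text.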

Additional observations from a re-analysis of the deposited data

How the results depend on the processing

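The 28 genes called over all genes became 18 with the length correction, 111 with library weights, 16 without the trend and 0 to 419 on leaving out 1 library (0 without any 1 of the 3 libraries labelled knockout, 1 without wildtype replicate 2, 87 without wildtype replicate 1 and 419 without wildtype replicate 3). Fewer libraries lower the power, and the other causes were not tested. Of the members, 3 were called with library weights (Ttn, Neb and Tcap), 1 with upper quartile scaling (Ttn) and 0 to 3 on leaving out 1 library, the 3 being Ttn, Neb and Tcap without wildtype replicate 3. Of the other skeletal muscle genes, 1 was called with library weights, 1 with upper quartile scaling and 0 to 2 on leaving out 1 library (1 without wildtype replicate 1, and 2, Myom1 among them, without wildtype replicate 3). Of the giant genes outside the sarcomere, 0 were called with the length correction or without the trend, 5 with library weights and 0 to 8 on leaving out 1 library (8 without wildtype replicate 1, 7 without wildtype replicate 3). The median of genes of 12 kb or more, 1.04, was 0.12 with the length correction, by construction, and 0.83 to 1.20 on leaving out 1 library, and the long minus short difference of 2.60 was 1.17 and 2.05 to 3.10. The number of members without overlap, 5, was 5 to 9, with 9 without wildtype replicate 1, where the shares over all genes also went up, from 13.6% to 21.5% higher and from 14.9% to 22.1% lower, and that of the giant genes, 29, was 29 to 32; these counts without a library were added after seeing the data. The signs of 7 members held in all 14 alternatives. Those of Ttn and Tnnt3 turned in 1 each (-0.42 with the length correction and 0.27 without wildtype replicate 2), and that of Ryr1 in 4 of 13, down to -0.69. The long minus short value could not be given for genes with a mean of at least 10, since Ryr1 is removed. Below about 20 normalized counts, depth limits what can be told apart.

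The replicate numbers did not pair the libraries: deviations of same-numbered libraries had Pearson r of -0.065, 0.103 and 0.246, and wildtype replicate 1 was closest to knockout replicate 2 (0.469). With the replicate block 7 genes were called, 0 of the giant genes among them.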

Other observations

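Some muscle genes differed more between replicates than between labels; they were chosen after their values were seen, and no explanation was tested. Myom3, which encodes an M-band protein of the sarcomere, was at 912, 342 and 101 in wildtype replicates 1, 2 and 3 and at 688, 1022 and 113 in knockout replicates 1, 2 and 3. Art1, an ADP-ribosyltransferase of muscle membranes, was at 793, 343 and 28 and at 381, 432 and 51 in the same order. Xirp2, an actin-binding protein that hair cells also use, was at 16, 35 and 54 and at 290, 263 and 38. Myom3 and Art1 were lowest in replicate 3 of each label, and Xirp2 was low in every library but knockout replicates 1 and 2.

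Of 3 muscle isoforms of cytochrome oxidase subunits, 2 had yet another high library. Cox7a1 was at 163, 296 and 897 in wildtype replicates 1, 2 and 3 and at 174, 136 and 131 in knockout replicates 1, 2 and 3, and Cox8b was at 501, 793 and 1524 and at 435, 439 and 483. Cox6a2, the third, was at 3, 25 and 2 and at 2, 6 and 3, highest in wildtype replicate 2. Cox7a1 and Cox8b were highest in wildtype replicate 3, the library with the highest sums of the bone and red cell lists, and not in wildtype replicate 2, where Acta1, Ckm and Myl1 peaked. Muscle genes therefore had at least 3 different leading libraries among the 6.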
